A study of Homo sapiens with 6 samples.

Results

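BCL2 family genes, which set whether a cell enters apoptosis through its mitochondria, were compared between HT29 cells sensitive and resistant to methotrexate. The set was BCL2, BCL2L1, BCL2L2 and MCL1, which hold cells alive, and BAX, BAK1, BID, BIK, BCL2L11 and BBC3, which promote death. Of these 10 genes, 9 had a probe set that named them alone, as did 19775 genes of the array in all, and BBC3 had only one shared with other genes. Members were taken by symbol, with earlier results of these data known, and every probe set annotated to a member alone was read. This gave 30 probe sets for 9 members, and 24 of the 30 passed the filter on dim signals, a scaled signal that averages 1 or more across the 6 arrays.

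HT29 cells derive from a human colorectal adenocarcinoma, and methotrexate (MTX) is an antifolate that inhibits dihydrofolate reductase. The sensitive group was 3 samples of HT29 cells grown in Ham's F12 medium with fetal bovine serum. The resistant group was 3 samples of HT29 cells resistant to 10 μM MTX, obtained by stepwise exposure to the drug and kept in medium lacking glycine, hypoxanthine and thymidine, with dialyzed serum. Medium and resistance differed together, so that their parts cannot be told apart. Total RNA was hybridized to Affymetrix HG U133 PLUS 2.0 arrays. The study calls them triplicates without stating whether each came from its own culture, so the p-values measure no more than the spread among these 6 samples, part or all of which may be technical.

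Pro-survival BCL2 proteins bind and hold back their relatives that kill. BAX and BAK1, the effectors, permeabilize the outer mitochondrial membrane when activated and release cytochrome c, which leads to caspase activation. BH3-only proteins such as BID, BIK, BIM (encoded by BCL2L11) and PUMA (encoded by BBC3) either neutralize the pro-survival proteins or activate the effectors, and many of them are induced by stress, loss of growth factors or p53.

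Signals were divided by the median of their array, so that 1 on this scale is the median of the array, and log2 values of all probe sets past the filter were fitted with limma. A call was an adjusted p under 0.05 (Benjamini-Hochberg over 26833 probe sets). A gene was read from its brightest probe set, and log2 fold changes are resistant over sensitive. The median signal of the arrays before scaling was 13.3 to 16.9. Correlations of log2 signals between arrays of the same group were 0.966 to 0.975, and 0.914 to 0.924 between arrays of different groups. The ratio of 3' to 5' probe sets of ACTB was 1.12 to 1.17 on sensitive and 1.17 to 1.30 on resistant arrays, and that of GAPDH was 1.0 to 1.01 and 0.98 to 1.04. Summed scaled signals of 10 colon epithelium markers were 1670 to 1840 on sensitive and 1360 to 1480 on resistant arrays. Of these markers CDX1 and CDX2 were under 1 on all 6 arrays, and of the 7 tested 4 were lower (KRT8 -0.77, KRT20 -0.60, VIL1 -0.49 and CEACAM5 -0.89, log2 fold change), 1 was higher (CDH17, 1.2) and EPCAM (-0.01) and KRT18 (-0.15) were not called. The summed signal of 10 markers of leukocytes, endothelium and fibroblasts was 7.46 to 10.4 and 4.31 to 7.59, and 4 of them were under 1 on all arrays. Of the 2 tested, CD14 was lower (log2 fold change -2.81, adjusted p = 0.0041) and PECAM1 was not called (0.61). The part of RNA quality and of the epithelial markers in the results below was not tested.

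Promoters of 7 members were found among RefSeq promoters (GRCh38.p14), each 300 bases long and spanning a transcription start, with 12 promoters in all. They are shown for the 3 of these genes whose brightest probe set fell in the resistant cells and that held a match to an E-box or forkhead motif on either strand, with the match in capitals.
BAX (chr19:48954625-48954924, + strand): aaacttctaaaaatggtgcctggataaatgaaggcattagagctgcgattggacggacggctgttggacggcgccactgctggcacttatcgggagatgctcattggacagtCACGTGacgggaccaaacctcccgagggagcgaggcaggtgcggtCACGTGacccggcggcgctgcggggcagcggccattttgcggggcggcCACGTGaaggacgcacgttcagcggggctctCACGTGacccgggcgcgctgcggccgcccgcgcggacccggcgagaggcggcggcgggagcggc
BID (chr22:17773934-17774233, - strand): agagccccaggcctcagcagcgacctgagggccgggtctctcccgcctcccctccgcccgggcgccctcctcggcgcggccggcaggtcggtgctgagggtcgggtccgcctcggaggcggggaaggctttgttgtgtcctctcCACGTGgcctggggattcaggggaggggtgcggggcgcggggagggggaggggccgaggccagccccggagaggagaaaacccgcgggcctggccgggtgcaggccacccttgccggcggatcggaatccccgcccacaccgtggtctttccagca
BCL2L11 (chr2:111120664-111120963, + strand): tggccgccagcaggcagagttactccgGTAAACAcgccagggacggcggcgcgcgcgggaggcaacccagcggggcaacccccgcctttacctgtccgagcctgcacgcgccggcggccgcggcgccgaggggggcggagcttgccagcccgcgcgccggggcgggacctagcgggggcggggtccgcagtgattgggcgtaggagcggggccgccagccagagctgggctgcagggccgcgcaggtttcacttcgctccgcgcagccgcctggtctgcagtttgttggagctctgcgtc

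The BAX promoter held 4 matches to CACGTG, the canonical E-box of MYC and related factors, which was present in 7.2% of 34796 promoters of the same length. In BID the same motif was found in 2 of 5 promoters, which overlap each other and share the match, and the second one listed is printed. The BBC3 promoter also held 1 match to it. BCL2L11 held 1 match to GTAAACA, a core bound by forkhead factors such as FOXO3, present in 3.42% of promoters. Matches to the CCAAT box (letters CCAAT) were found in BAX, BAK1, BCL2L11 and BBC3, where 34.6% of all promoters had one. The promoter printed for BAX had no match to the decamer bound by p53, and BAK1 was the only member promoter with one, against 6.65% of all promoters. The GC box (letters GGGCGG) had matches in promoters of BCL2L1, BAX, BAK1, BID and BCL2L11, where 44.9% of all promoters had one. These motifs were searched separately, and a match is a run of letters in the window, not a measured binding site.

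Of the 9 members tested, BAX, BID, BIK and BCL2L11 fell in the resistant cells and none rose. Over all 11835 tested genes, 21.4% were lower and 11.9% were higher at the same threshold. The fallers were 4 of the 5 pro-death members tested, whereas 0 of 4 pro-survival members was called in either direction. With the tested probe sets of each gene averaged, 3 of the 5 and 1 of the 4 (MCL1) were lower. The difference between the classes was not tested. In bulk RNA, a change in the share of cells and a change per cell cannot be told apart. The median log2 fold change was -0.52 over the pro-death members, -0.03 over the pro-survival members and -0.10 over all tested genes. None of the members passed the 3-fold threshold of the methods, which 2.14% of all genes passed downwards. BAX was called without any 1 of the 6 arrays, whereas the other 3 depended on single arrays. The count of members lower was 1 without sensitive replicate 1 or resistant replicate 2, 2 without sensitive replicate 2 or 3, and 4 without resistant replicate 1 or 3. The split of all genes moved with the scaling, from 1406 higher and 2535 lower as above to 2375 higher and 2105 lower after quantile normalization, and to 2155 higher and 2364 lower when arrays were scaled to the median over tested probe sets only. Quantile normalization moved the median of all genes to 0.02. On that scale the log2 fold change was -0.67 for BAX, -0.29 for BID and -0.60 for BIK, all 3 still called, and -0.39 for BCL2L11, with an adjusted p of 0.068.

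**Figure D1:**
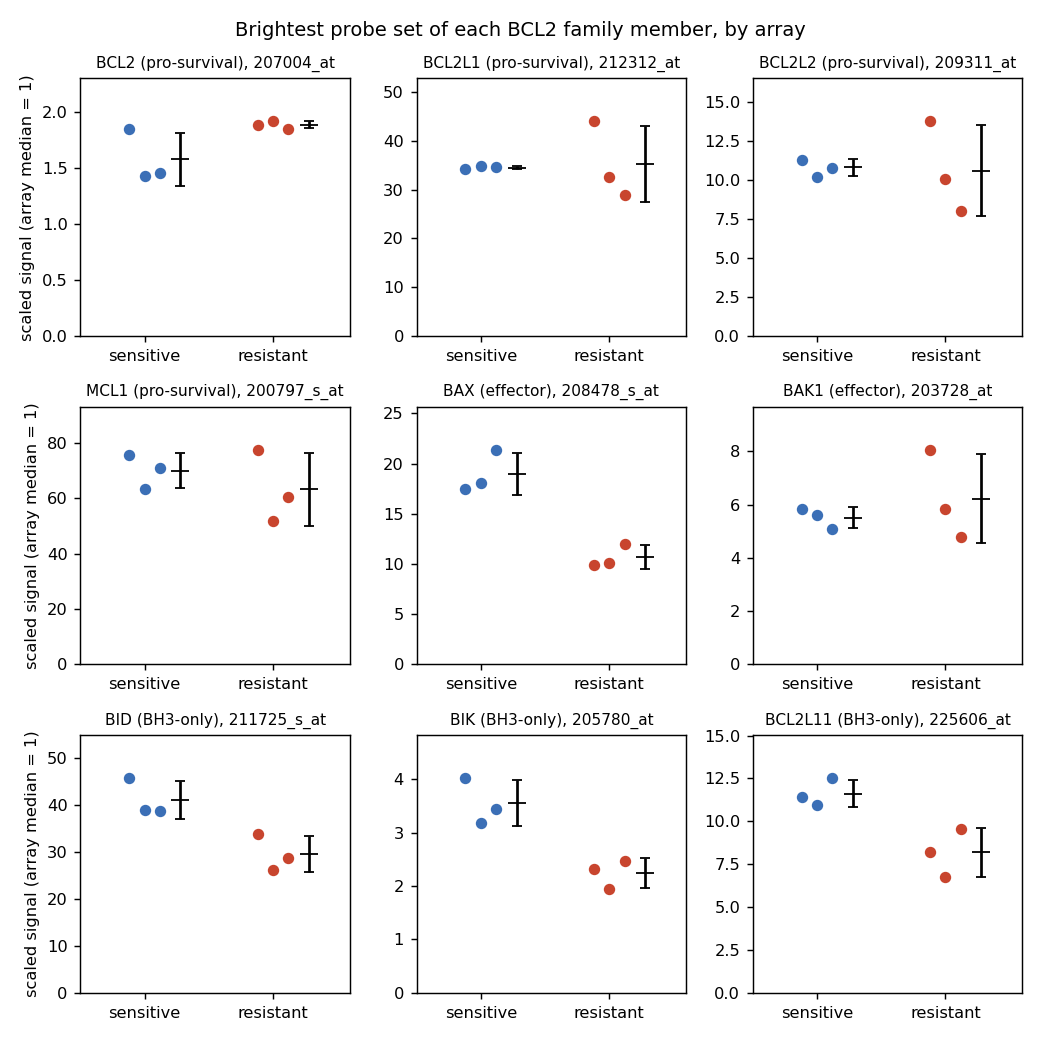
Scaled signal (array median = 1, linear axis from 0) of the brightest probe set of each of the 9 members, for the 3 sensitive (blue) and 3 resistant (red) arrays, with bars for mean ± SD. The points of the groups do not overlap for BAX, BID, BIK and BCL2L11, and overlap for the other 5 members. The share of all tested genes without overlap is not given here. Separation of the groups is thus only a description, here and for the genes named below.

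Among the pro-survival members, BCL2, the founding member of the family, had a low signal. Its brightest probe set (207004_at) read 1.85, 1.43 and 1.45 on sensitive arrays and 1.89, 1.92 and 1.85 on resistant ones, a log2 fold change of 0.27 ± 0.31 (SE, adjusted p = 0.56). The groups met at the highest sensitive and the lowest resistant array, and the other 3 BCL2 probe sets averaged under the array median and were not tested.

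BCL2L1 encodes BCL-XL, a guardian of the outer mitochondrial membrane in epithelial cells. Its brightest probe set (212312_at) read 34.3, 34.7 and 34.6 on sensitive arrays and 44.0, 32.5 and 29.0 on resistant ones (log2 fold change 0.00 ± 0.16, adjusted p = 0.99). The resistant arrays lay on either side of the sensitive ones. The other tested BCL2L1 probe sets had log2 fold changes of -0.07 and -0.11, and neither was called.

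BCL2L2 encodes BCL-w, a close relative of BCL-XL. The signal of 209311_at was 11.3, 10.2 and 10.8 on sensitive arrays and 13.8, 10.04 and 8.01 on resistant ones (log2 fold change -0.06 ± 0.19, adjusted p = 0.86). Resistant replicate 1 was again the highest array and replicate 3 the lowest. The second probe set changed by 0.02 ± 0.36, and another one, which also names PABPN1, was not assigned to BCL2L2.

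MCL1 is a short-lived pro-survival protein whose level is set largely by its turnover. On its brightest probe set (200797_s_at) the signal was 75.8, 63.3 and 71.0 on sensitive arrays and 77.6, 51.8 and 60.4 on resistant ones, with a log2 fold change of -0.16 ± 0.14 (adjusted p = 0.43). Its probe sets disagreed in size. The probe set 200796_s_at read 11.4, 12.4 and 13.5 on sensitive arrays and 4.58, 5.51 and 7.20 on resistant ones, with no overlap and a fall of 2.19-fold (log2 fold change -1.13 ± 0.19, adjusted p = 9.1e-05). The other 3 tested MCL1 probe sets had log2 fold changes from -0.40 to -0.26 and were not called. Taken as the mean of its 5 tested probe sets, MCL1 changed by -0.45 and was called lower (adjusted p = 0.030), so that the absence of a call for MCL1 rested on the probe set read. Which part of the transcript each probe set reads was not analysed here.

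Of the effectors, BAX fell on both of its probe sets. The signal of 208478_s_at was 17.4, 18.1 and 21.4 on sensitive arrays and 9.91, 10.1 and 11.98 on resistant ones, 1.78-fold lower (log2 fold change -0.83 ± 0.17, adjusted p = 0.00062). On 211833_s_at the signal was 15.5, 20.8 and 19.3 against 9.50, 9.04 and 12.4, 1.81-fold lower (log2 fold change -0.85 ± 0.18, adjusted p = 0.00091). Every resistant array was below every sensitive array on both probe sets. The call held in 17 of 18 alternatives, the 3-fold threshold not counted among them, and ended with a test that lets the groups differ in variance (adjusted p = 0.075). The fall was short of 3-fold.

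BAK1, the other effector, did not pass the test. Its probe set read 5.83, 5.60 and 5.08 on sensitive arrays and 8.05, 5.82 and 4.79 on resistant ones, with a log2 fold change of 0.15 ± 0.20 (adjusted p = 0.63). The resistant arrays spanned the whole range of the sensitive ones, and replicate 1 was the highest.

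The BH3-only members tested were all lower, by less than BAX. BID, which links death receptors to mitochondria after cleavage by caspase-8, read 45.7, 38.9 and 38.7 on sensitive arrays and 33.9, 26.2 and 28.7 on resistant ones on 211725_s_at, 1.39-fold lower (log2 fold change -0.48 ± 0.15, adjusted p = 0.017). The groups did not overlap there or on 204493_at, whose log2 fold change was -0.60 ± 0.17 (adjusted p = 0.0091). The third BID probe set changed by -0.35 ± 0.16 and was not called (adjusted p = 0.11). The call on 211725_s_at was lost without sensitive replicate 1 (log2 fold change -0.40, adjusted p = 0.11) or resistant replicate 2 (-0.40, adjusted p = 0.058).

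BIK, a BH3-only protein of the endoplasmic reticulum, had a signal of 4.01, 3.19 and 3.44 on sensitive arrays and 2.32, 1.94 and 2.47 on resistant ones on its only probe set. This was 1.58-fold lower (log2 fold change -0.66 ± 0.23, adjusted p = 0.037) with no overlap. The adjusted p was close to the threshold and lay above it without sensitive replicate 1 (0.14), 2 (0.061) or 3 (0.079) and without resistant replicate 2 (0.11), while the log2 fold change stayed between -0.74 and -0.56 in these fits. It also lay above the threshold on the signals with no further scaling (0.052) and with arrays scaled over tested probe sets only (0.059).

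BCL2L11 encodes BIM, which binds all the main pro-survival proteins. Its brightest probe set (225606_at) read 11.4, 11.0 and 12.5 on sensitive arrays and 8.21, 6.77 and 9.58 on resistant ones, 1.43-fold lower (log2 fold change -0.52 ± 0.18, adjusted p = 0.031). Here too the groups did not overlap. The call was lost without sensitive replicate 1 (adjusted p = 0.074), 2 (0.071) or 3 (0.12) or resistant replicate 2 (0.12). The other 5 tested probe sets of BCL2L11 were not called and ranged from -0.59 to 0.42, and their mean with the brightest one was -0.21 (adjusted p = 0.39), so that the call belonged to that probe set.

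BBC3, a p53 target, was read by no probe set that named it alone. The probe set that names BBC3 with MIR3190 and MIR3191 had 4.29, 3.34 and 2.97 on sensitive arrays and 3.72, 3.65 and 2.78 on resistant ones (log2 fold change -0.06 ± 0.22, adjusted p = 0.88). The groups overlapped, and this probe set was left out of all counts of members.

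**Figure D2:**
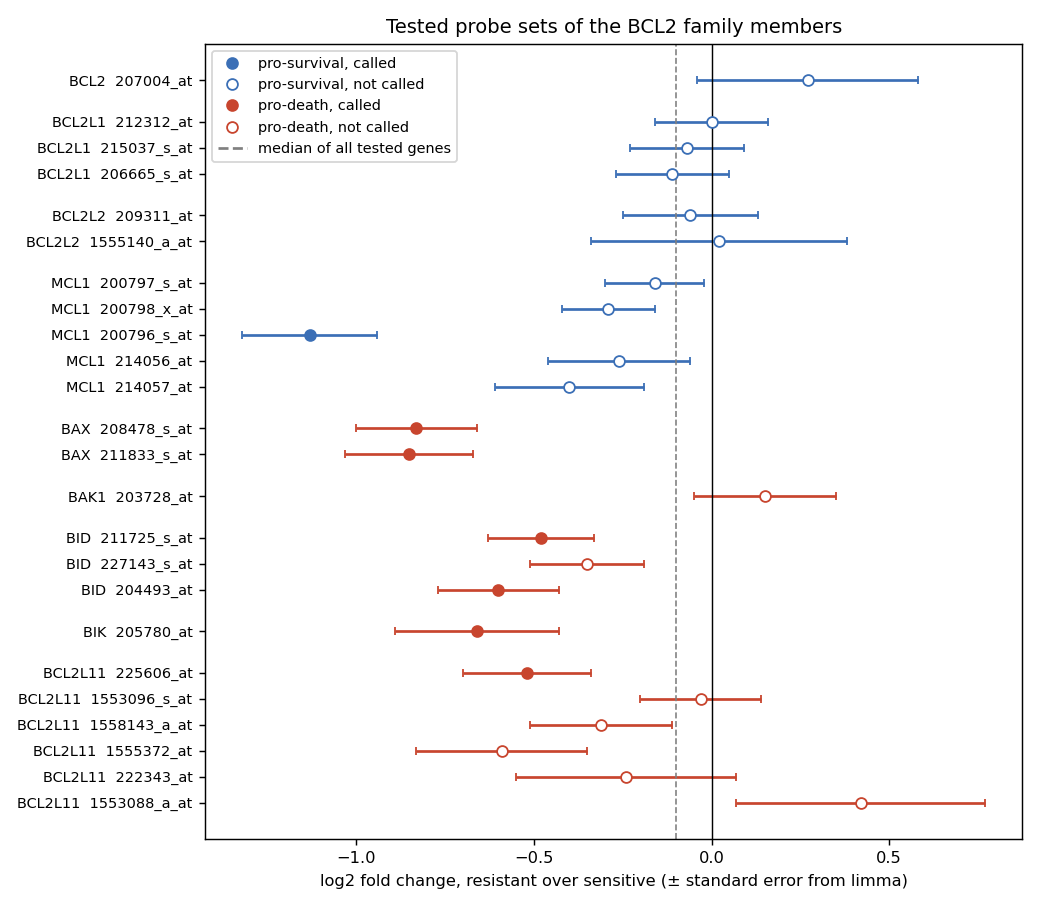
Log2 fold change (resistant over sensitive) ± SE from limma of the 24 tested probe sets of the 9 members, pro-survival in blue and pro-death in red, filled where called; the dashed line is the median of all tested genes at -0.10. The filled points are 7, all lower, with 1 pro-survival probe set (MCL1, 200796_s_at) and 6 pro-death ones.

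Across probe sets, 7 of 24 were called lower and 0 higher, where 19.5% of all tested probe sets were lower and 9.52% higher. The 7 were 1 of 11 pro-survival and 6 of 13 pro-death probe sets. Probe sets of a gene share their transcript and are not independent. The number lower was 3 without sensitive replicate 1, 4 without resistant replicate 2, and up to 9 when another array was left out.

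The balance of both classes was described on each array as the mean log2 signal of the 4 pro-survival members less that of the 5 pro-death members, each relative to its mean over the sensitive arrays. It was 0.05, -0.02 and -0.03 on the sensitive arrays (0.00 ± 0.04, SD, n = 3) and 0.63, 0.54 and 0.27 on the resistant arrays (0.48 ± 0.19, SD, n = 3). All 3 resistant arrays thus lay above all 3 sensitive ones, with no test, since the members were chosen with results known. The balance was read from the brightest probe sets only, and the calls of MCL1 and BCL2L11 depended on the probe set read. The pro-death mean was -0.35, -0.62 and -0.43 on the resistant arrays, below the median of all tested genes there (0.07, -0.20 and -0.15). The pro-survival mean was 0.28, -0.08 and -0.16, above that median on replicates 1 and 2 and close to it on replicate 3.

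**Figure D3:**
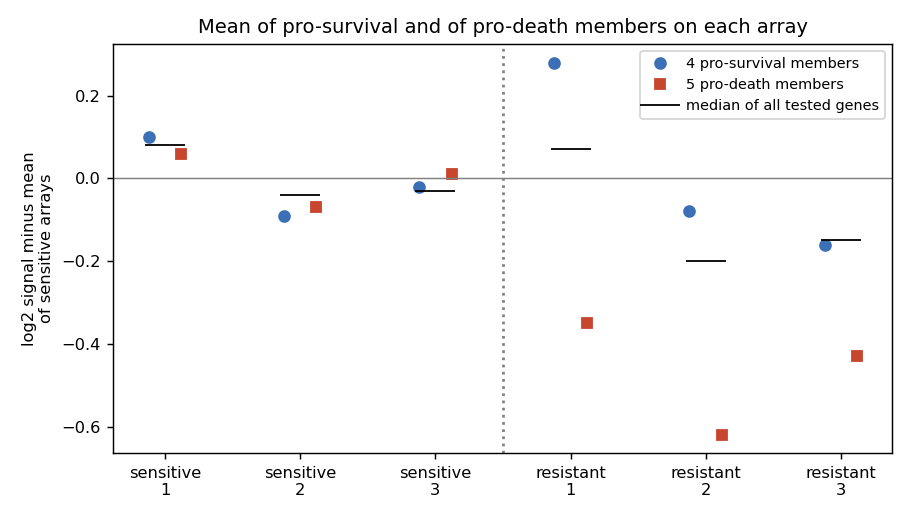
Mean log2 scaled signal of the 4 pro-survival (circles) and 5 pro-death members (squares) on each of the 6 arrays, relative to the mean of the sensitive arrays, with the median of all tested genes as a short line. The squares drop to between -0.62 and -0.35 on the resistant arrays, and the circles stay between -0.16 and 0.28.

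The other BCL2 family genes moved in both directions. Of 13 listed, 9 were tested, with 2 higher, 3 lower and 4 not called, and a median log2 fold change of -0.10. Beside these counts and those of the lists below, 21.4% of all tested genes were lower and 11.9% were higher. BNIP3L, a BH3-like protein of the outer mitochondrial membrane and a receptor for mitophagy, read 8.18, 7.25 and 6.97 on sensitive arrays and 42.2, 29.0 and 26.9 on resistant ones on 221478_at (log2 fold change 2.10 ± 0.18, adjusted p = 8.8e-09). The groups were far apart, and its other probe set rose by 1.76. BAD, a BH3-only protein controlled by phosphorylation, had a signal of 12.3, 11.4 and 8.94 against 18.8, 14.4 and 13.0 (log2 fold change 0.50 ± 0.18, adjusted p = 0.043). Its groups did not overlap either, but the BAD call was lost without resistant replicate 1 (adjusted p = 0.13) or 2 (0.066) and without sensitive replicate 2 (0.085) or 3 (0.22), and a second BAD probe set was not called (0.35, adjusted p = 0.17).

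Among those that fell, PMAIP1 encodes NOXA, the BH3-only partner of MCL1. Its signal was 9.94, 9.79 and 10.01 on sensitive arrays and 5.41, 3.86 and 4.30 on resistant ones (log2 fold change -1.15 ± 0.18, adjusted p = 5.9e-05), and its second probe set fell by 1.13. BCL2L15, a pro-apoptotic relative known in the gastrointestinal tract, read 7.68, 5.89 and 7.60 against 2.25, 1.89 and 1.46 (log2 fold change -1.93 ± 0.22, adjusted p = 8.7e-07). All 3 of its probe sets were called, from -2.50 to -1.93. BCL2L12, a divergent family member, had a mean signal of 20.3 ± 1.57 against 10.7 ± 0.951 (SD, n = 3 each, log2 fold change -0.92 ± 0.16, adjusted p = 0.00016). None of these 3 genes had overlapping groups.

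BOK, an effector-like relative, changed by 0.26 ± 0.19, the BH3-only gene BMF by 0.44 ± 0.45 and BCL2L13 by -0.10 ± 0.18 on the log2 scale, and none of them was called. BCL2L14 changed by -1.78 ± 0.72 (adjusted p = 0.066). It read 1.53, 2.20 and 1.31 on sensitive arrays and 1.96, 0.331 and 0.166 on resistant ones, so that resistant replicate 1 stood among the sensitive arrays, and without that array it was called (log2 fold change -2.80, adjusted p = 0.0079). BCL2A1, BCL2L10, HRK and BNIP3 had no probe set past the filter.

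Caspases and the mitochondrial proteins that act after membrane permeabilization were tested for 14 of 16 listed genes, of which 1 rose, 4 fell and 9 were not called (median log2 fold change -0.25). AIFM1, a mitochondrial flavoprotein that can carry the death signal to the nucleus, read 36.2, 33.2 and 35.2 on sensitive arrays and 18.5, 13.8 and 14.6 on resistant ones (-1.17 ± 0.16, adjusted p = 6.3e-06). DFFB, the nuclease that cuts DNA into nucleosomal fragments, fell by 0.82 (adjusted p = 0.0029) and CASP2 by 0.65 (adjusted p = 0.0025). The 7 tested probe sets of CASP2 disagreed in size, from -3.60 to -0.65, with a mean of -1.48. VDAC3, a channel of the outer mitochondrial membrane, rose by 0.64 ± 0.12 (adjusted p = 0.00033), and its relative VDAC1, named after its value was seen, fell by 0.61. Without resistant replicate 1 the number lower was 7.

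Inhibitor of apoptosis (IAP) proteins, which block caspases or support mitosis, were called for 1 of 5 tested genes, with a median of -0.20. After quantile normalization 1 was higher and 0 lower. BIRC5 (survivin) fell by 0.41 (adjusted p = 0.028), a call lost without resistant replicate 2 (adjusted p = 0.095) or sensitive replicate 1 or 2 (0.11 each), and its brightest probe set of suffix _at alone gave 0.11 (adjusted p = 0.66).

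Death receptors and their adaptors form the route that reaches mitochondria through BID. Of 14 tested, 3 were higher, 3 lower and 8 not called (median -0.10), beside 11.9% higher and 21.4% lower over all genes. TNFRSF10D, a decoy receptor for TRAIL, read 3.46, 3.31 and 3.88 on sensitive arrays and 13.4, 9.72 and 12.6 on resistant ones (1.74 ± 0.19, adjusted p = 3e-07). TNFRSF10B, which encodes the signalling receptor DR5, read 20.0, 21.1 and 20.5 against 39.0, 38.4 and 41.2 (0.94 ± 0.14, adjusted p = 2.7e-05). The other TRAIL receptors on the list were not called (TNFRSF10A -0.14, TNFRSF10C -1.22). TNFRSF1A rose by 0.50 (adjusted p = 0.039), a call lost without resistant replicate 1 (adjusted p = 0.12) or 2 (0.053) and without sensitive replicate 2 (0.096) or 3 (0.20). CFLAR, which encodes the caspase-8 inhibitor FLIP, fell by 0.51 (adjusted p = 0.010), a call lost with limma without the trend (0.060) and on its brightest _at probe set (-0.21, adjusted p = 0.73). That _at probe set had a mean scaled signal of 1.9, against 36.5 on the brightest of all. Further tested CFLAR probe sets were either called lower (from -1.91 to -0.60) or not called (from -0.50 to 0.16). FADD (-0.45) and TNFRSF25 (-1.10, with overlapping groups) were the other genes called lower and were named after their values were seen. The number lower was 1 without sensitive replicate 1 or 3.

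Of 17 p53 target genes tested, 3 rose, 5 fell and 9 were not called (median 0.04). SESN1, a stress-induced inhibitor of mTORC1 signalling, read 10.2, 9.77 and 10.3 on sensitive arrays and 3.16, 3.17 and 2.78 on resistant ones (-1.74 ± 0.18, adjusted p = 2e-07). AEN, an apoptosis-associated nuclease, fell by 1.22 (adjusted p = 3.7e-05). CCNG1 (cyclin G1) rose by 0.80 (adjusted p = 1e-05) and TP53I3 by 0.78 (adjusted p = 0.0036). The list held genes called in either direction, and the number lower was 3 without sensitive replicate 1. HT29 is known to carry a mutant p53. PMAIP1 and BAX above, which fell, are also p53 targets, as is BBC3, whose shared probe set was not called (-0.06). The part of p53 in these values was not tested.

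Regulators of BIM and of MCL1 turnover gave 2 higher, 2 lower and 7 not called of 11 tested (median 0.05). The number higher was 4 after quantile normalization or scaling over tested probe sets only, and 0 on the brightest _at probe sets. FOXO3, a transcription factor for BCL2L11, read 42.8, 40.7 and 39.1 on sensitive arrays and 28.1, 23.2 and 25.8 on resistant ones (-0.67 ± 0.14, adjusted p = 0.0011). The other forkhead factors listed, FOXO1 (0.46, adjusted p = 0.051) and FOXO4 (0.02), were not called and were named after their values were seen. The part of these factors in the level of BCL2L11 was not tested. DYNLL1, the dynein light chain that binds BIM, fell by 0.36 (adjusted p = 0.0063). BTRC, an F-box protein of a ubiquitin ligase for MCL1 and BIM, rose by 0.87 (adjusted p = 0.00084), with 4.17, 4.18 and 4.38 against 7.35, 7.58 and 8.43. On its brightest _at probe set BTRC was not called (0.35, adjusted p = 0.47). MAPK3 (ERK1), which phosphorylates BIM for degradation, rose by 0.59 (adjusted p = 0.025), a call lost without resistant replicate 1 (adjusted p = 0.076) and without sensitive replicate 2 (0.14) or 3 (0.068).

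**Figure D4:**
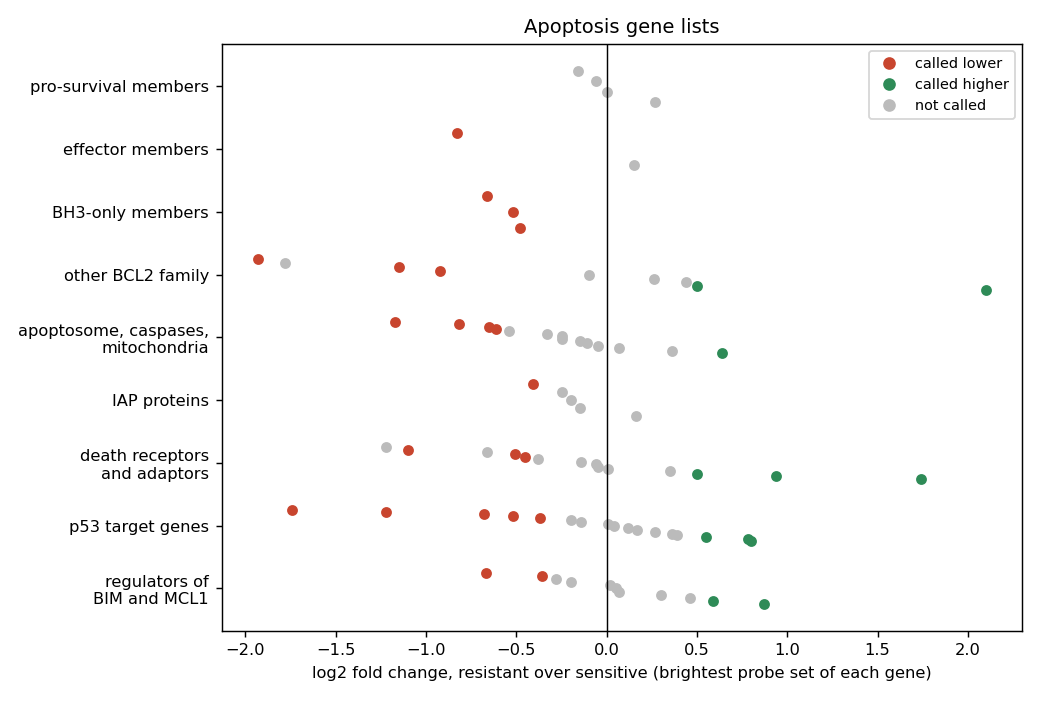
Log2 fold change (resistant over sensitive) of the brightest probe set of each tested gene in the members' classes and in the other apoptosis lists, coloured by call; vertical offsets within a list only separate the points. The 3 tested BH3-only members are all called lower, between -0.66 and -0.48, and the other lists except IAP proteins hold calls on both sides of 0.

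The members lie on chromosomes 1, 2, 6, 14, 18, 19, 20 and 22 in GRCh38.p14. To see whether they moved with their surroundings, the nearest 5 tested genes on each side were read. The 10 neighbours of BAX had a median log2 fold change of 0.11, with 1 higher and 2 lower, beside -0.83 for BAX. Those of BID had a median of -0.02 (2 higher, 1 lower), those of BIK -0.08 (0 and 1) and those of BCL2L11 -0.08 (0 and 1), each above the value of the member. Around BCL2L1 the median was -0.39 with 3 of 10 lower and 1 higher, below the 0.00 of BCL2L1 itself. The remaining members, BCL2, BCL2L2, MCL1 and BAK1, had neighbours with medians between -0.15 and 0.02. BAX, BID, BIK and BCL2L11 were singled out because they were called lower, so a value below that of their neighbours was largely set by that choice. Copy number was not analysed here.

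**Figure D5:**
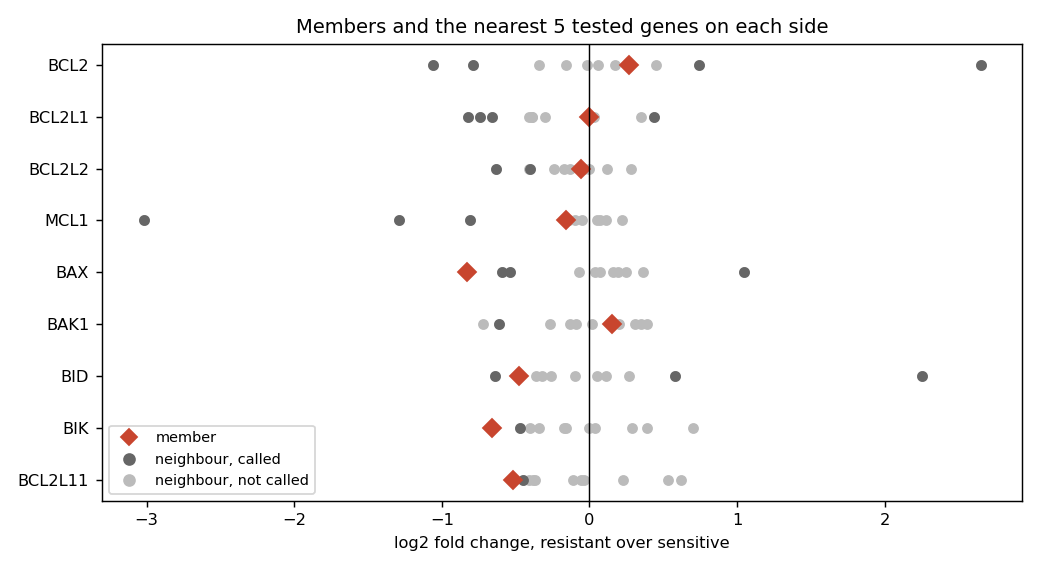
Log2 fold change (resistant over sensitive) of each of the 9 members (diamonds) and of the 5 nearest tested genes on each side (circles, dark where called). The diamonds of BAX, BIK and BCL2L11 lie to the left of all 10 of their neighbours, and that of BID to the left of 9. Since these members were singled out as called lower, this is only a description.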

How the data were processed

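The values the authors deposited are MAS5 signals (intensity on a linear scale, 1 per probe set). No MAS5 version is given in the sources used here, and normalization and filtering in GeneSpring GX followed later and are not part of these values. Groups come from the labels. Of 54675 probe sets, 62 controls were left out. The platform annotation gave 41091 probe sets 1 gene, 1801 several and 11721 none, and probe sets with several were counted for no gene. Current symbols and the order of genes came from RefSeq (GRCh38.p14), matched by Entrez identifier for 41043 probe sets.

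Signals were scaled to an array median of 1, raised to 0.01 where lower, and taken as log2. limma 3.58.1 in R 4.3.3 fitted them (lmFit, then eBayes using the trend of variance on mean), with 3 arrays a group and no covariate. A probe set was tested if its scaled signals averaged at least 1 (26833 of 54613). Precision is limited by the number of arrays. The procedure was also run on simulated data with independent errors, a setting simpler than these arrays, and its outcome is not used for the calls here. Tables were joined with pandas 2.3.3 and figures drawn with matplotlib 3.10.9.

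The members and the gene lists were chosen with earlier results of these data known. The rule named all members, all measured genes of the other BCL2 family list and, in each further list, up to 4 called genes with the largest change whose groups do not overlap. Alternatives covered scaling, low signals, the filter, the test, a replicate block, each array left out, the probe set read for a gene and the 3-fold threshold. Protein sequences, batches and a few listed genes were not analysed here.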

Additional observations from a re-analysis of the deposited data

How the results depend on the processing

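The call of BAX was kept under 17 of 18 alternatives and those of BID, BIK and BCL2L11 under 14 of 19, 9 of 18 and 9 of 19. These tallies leave out the 3-fold threshold, which none of the 4 passed. All 4 stayed negative under every alternative counted, between -0.92 and -0.67 for BAX, -0.60 and -0.29 for BID, -0.74 and -0.49 for BIK and -0.64 and -0.21 for BCL2L11. The members called lower, all of them pro-death, were 4 in the reported fit, 2 with no filter, 2 with limma without the trend, 1 with the methods' t-test run with equal variances (a setting they do not state), 0 with unequal variances and 0 with the 3-fold threshold, and 1 to 4 with 1 array left out, for the members and for the pro-death members alike. Member probe sets called lower were 7, and 4 without the trend, 2 with equal variances, 0 with unequal variances and 3 to 9 with 1 array left out. With the tested probe sets of each gene averaged, 3 pro-death members and 1 pro-survival member (MCL1) were called lower. The median with 1 array left out ranged from -0.64 to -0.40 over the pro-death and from -0.22 to 0.13 over the pro-survival members. No member rose under any alternative. Over all genes, the equal-variance test called 454 up and 945 down, the unequal-variance one 43 up and 63 down, and limma without the trend 946 up and 1522 down, all fewer than in the reported fit. Among called results BIRC5 was the one that changed sign, to 0.11 on its brightest _at probe set. Values near 0 that were not called also changed sign, such as MCL1 (0.03) and the pro-survival median (0.14) after quantile normalization. Deviations of arrays with the same replicate number correlated by 0.141, 0.007 and 0.079. No such value was computed for arrays of unlike number, so these do not settle whether the numbers pair the samples. With the replicate block 1703 genes were higher and 3148 lower (1406 and 2535 without it), members called lower stayed at 4, and among the genes named only the call of BCL2L14 was gained (adjusted p = 0.042). The cause of these changes was not tested.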
